A study of Mus musculus with 1470 samples.

Results

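The levels of 9 transcription factors of the myeloid lineage, Nr1h3, Id3, Spic, Maf, Zeb2, Irf8, Batf3, Irf4 and Spi1, were described across the cell classes of the mouse liver. They were chosen by symbol, and all 9 were found among the 14915 gene rows of the series. Non-parenchymal cells, the liver cells left after most hepatocytes have been spun out, came from male C57BL/6J mice that began the diets at 5 weeks of age. A total of 718 cells came from 3 mice on a normal chow diet (ND) and 752 cells from 3 mice kept for 9 weeks on a high-fat diet (HFD) with 60% of its energy from fat. No transgene or deletion is named for the mice of either group, and each cell was sequenced by Smart-seq2, so the mouse and not the cell was the replicate.

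These proteins divide the work of making and keeping the liver's phagocytes. PU.1, the product of Spi1, opens the myeloid programme in all of its branches, and IRF8, IRF4, BATF3 and ZEB2 steer precursors towards dendritic cells or monocytes. In Kupffer cells, the resident macrophages that line the liver sinusoids, LXR alpha (encoded by Nr1h3), ID3 and SPI-C keep up identity and the handling of lipid, haem and iron, while c-MAF holds macrophages in a differentiated state.

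Cells were named from fixed markers as Kupffer-like (KC, 24 to 52 cells per mouse), monocyte-derived or dendritic-like (MoDC, 53 cells in all), plasmacytoid dendritic-like (pDC, 21 in all), endothelial-like (EC, 477), T-like (18 to 78 per mouse), NK-like (53), B-like (21 to 53 per mouse), neutrophil-like (14), hepatocyte-like (35) and erythrocyte-like (32). Neither the 9 genes nor their listed partners were used for the clustering. The classes were named from these markers, so their levels describe the classes and do not check the names: the mean of 11 Kupffer markers was 9.71 on the log2(RPKM + 1) scale in KC and at most 3.45 in any other class, that of 11 pDC markers was 8.07 in pDC and at most 1.35 elsewhere, and that of 17 monocyte and dendritic markers was 3.9 in MoDC and at most 2.02 elsewhere. RPKM is a read count divided by the length of the transcript and by the reads of the cell, which puts genes and cells on a common scale. The values are shares of a cell's reads, so a difference between classes is relative to the other genes of those cells. Level below always means the mean of log2(RPKM + 1) over the cells of a class in 1 mouse, averaged over the mice with at least 2 such cells, and a difference is a difference of such means. The mice were not alike: HFD2 had the fewest genes per cell (median 1595.5, against 2363.5 to 3163 in the other 5), and HFD3 had the most signal of Kupffer markers in cells that are not Kupffer cells.

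The genes lie on 6 chromosomes of the GRCm38 build: Nr1h3 (chr2:91184061-91202834, minus strand), Spi1 (chr2:91082390-91115756, plus), Zeb2 (chr2:44983632-45117395, minus), Id3 (chr4:136143497-136145755, plus), Maf (chr8:115682942-115707794, minus), Irf8 (chr8:120736358-120756694, plus), Spic (chr10:88674772-88685015, minus), Irf4 (chr13:30749226-30766976, plus) and Batf3 (chr1:191097847-191108945, plus). Spi1 and Nr1h3 are close neighbours, 68.3 kb apart. Maf shares 5.34% of its exon bases with Gm15655 on the other strand, Zeb2 3.32% with other genes, among them its antisense gene Zeb2os, and Nr1h3 1.35% with Gm13783. Of these partners only Zeb2os is in the table. The reads carry no strand, so the share of each gene in those bases cannot be told apart.

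The bases before the first RefSeq start of 2 Kupffer factors (Nr1h3 and Spic) and 2 dendritic factors (Irf8 and Batf3) are given, 5′ to 3′ and limited to the stretch outside annotated exons. Only the stretch of Irf8 lies before the whole span of its gene given above, and those of Nr1h3, Spic and Batf3 lie within the spans, which reach beyond the RefSeq start used here. Capitals mark matches to 6 short motifs searched on both strands in the 250 bases before each start, and the stretch of Irf8 held none.
Nr1h3 chr2:91195152-91195366, minus strand: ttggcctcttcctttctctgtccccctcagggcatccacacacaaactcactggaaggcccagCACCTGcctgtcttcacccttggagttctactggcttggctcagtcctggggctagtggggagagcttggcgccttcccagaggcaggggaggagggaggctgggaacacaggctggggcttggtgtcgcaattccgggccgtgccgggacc
Spic chr10:88683024-88683273, minus strand: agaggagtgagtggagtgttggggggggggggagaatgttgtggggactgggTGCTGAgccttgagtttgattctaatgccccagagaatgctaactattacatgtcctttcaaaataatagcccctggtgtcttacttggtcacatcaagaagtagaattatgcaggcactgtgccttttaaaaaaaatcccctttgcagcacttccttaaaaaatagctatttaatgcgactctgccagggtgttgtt
Irf8 chr8:120736108-120736357, plus strand: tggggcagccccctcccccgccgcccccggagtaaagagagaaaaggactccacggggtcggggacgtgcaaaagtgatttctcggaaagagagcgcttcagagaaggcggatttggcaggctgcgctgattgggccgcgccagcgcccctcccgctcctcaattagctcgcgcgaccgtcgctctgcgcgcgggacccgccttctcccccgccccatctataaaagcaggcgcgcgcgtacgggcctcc
Batf3 chr1:191098238-191098324, plus strand: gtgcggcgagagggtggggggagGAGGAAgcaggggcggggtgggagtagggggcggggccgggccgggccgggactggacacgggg
The window before Nr1h3 held 1 E-box (CANNTG), which 66.2% of all 32851 windows of this length hold, and E-boxes also stood before Batf3 and before a second start of Irf8. The MAF half-site TGCTGA stood in the window of Spic and in that of the second start of Irf8, and in 16.1% of all windows. GAGGAA, the ETS core in the form PU.1 prefers, was found before Batf3, Zeb2, Id3 and Irf4 and in 23.3% of all windows. The ETS-IRF composite (GGAA and GAAA with 2 bases between, 2.30% of windows), the IRF element (GAAA repeated after 2 bases, 2.98%) and the nuclear receptor half-site AGGTCA (14%) were found before none of the 7 members with a window. A match is a description of the letters and does not show binding.

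Among the Kupffer genes, Nr1h3 was highest in KC, Spic had its highest level in KC, and Id3 and Maf were highest in endothelial cells with KC second. Nr1h3 stood at 5.08 ± 1.41 (SD, n = 6 mice) in KC, with 5.10, 5.46 and 5.21 in ND1, ND2 and ND3 and 4.63, 2.84 and 7.23 in HFD1, HFD2 and HFD3. The next classes were hepatocyte-like cells at 2.77 ± 2.38 (n = 5) and MoDC at 1.37 ± 1.47 (n = 6), and no other class exceeded 1.12. Every mouse had its Nr1h3 level higher in KC than in MoDC, but the ranges over mice overlapped. HFD3 in MoDC (3.95), EC (3.52) and neutrophil-like cells (3.29) was above HFD2 in KC. Hepatocyte-like cells overlapped KC further, with 5.13 in ND1, above the KC of the same mouse, and 5.41 in HFD3.

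**Figure D1:**
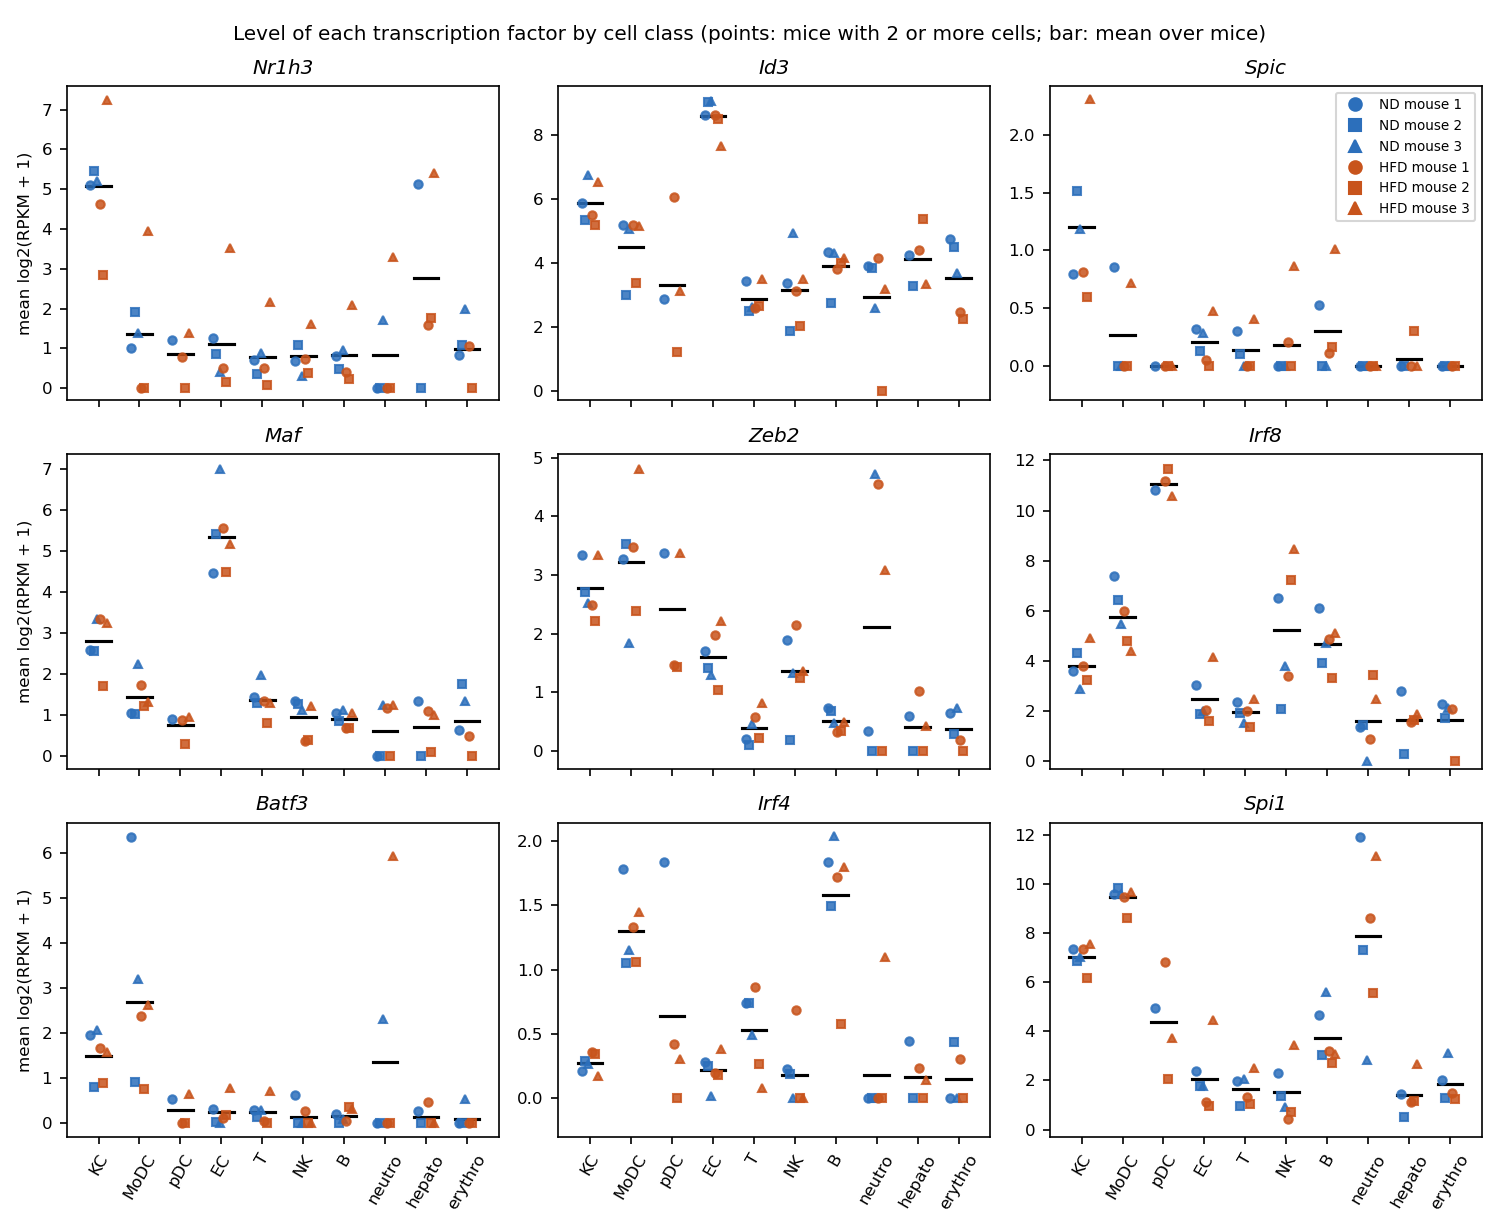
Level of each gene by cell class, as mean log2(RPKM + 1), with 1 point per mouse (ND blue, HFD orange, shapes for mice 1 to 3, mice with at least 2 cells of the class) and a bar for the mean over mice. Irf8 in pDC and Id3 and Maf in EC lie above every mouse of every other class, and the HFD3 triangle stands high for Nr1h3 in KC, MoDC, EC, T and B cells.

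Nr1h3 had an RPKM of 1 or more in 68.4% of KC, from 34.5% of KC in HFD2 to 95.2% in HFD3. It also had such a value in 21.3% of T-like and 23.2% of B-like cells, which are not known for it, at median depths of 2584 and 2438 genes per cell against 2300 in KC. At an RPKM of 10 or more the contrast was larger, with 60.3% of KC, 2.95% of T-like and 5.28% of B-like cells. Signal of this kind outside KC ran with the mouse. In the EC, T-, NK- and B-like cells together, Nr1h3 was found in 34.5%, 20.9% and 22.7% of cells in ND1, ND2 and ND3 and in 18.8%, 5.20% and 73% in HFD1, HFD2 and HFD3. The mean of the 11 Kupffer markers in the same cells was 3.51, 2.57 and 3.34 in the ND mice and 2.57, 1.26 and 5.08 in the HFD mice, so both measures were lowest in HFD2 and highest in HFD3. The share of these cells with Clec4f, a lectin found on Kupffer cells alone in the liver, ranged from 40.4% in HFD2 to 98.9% in HFD3. The values of Nr1h3 and Spic in the lymphoid classes are given for comparison with KC. Their source, and whether they are background, was not tested. Hepatocytes also make LXR alpha, and the mean of 8 hepatocyte markers in KC was 5.38 (3.05 to 6.92 over mice), against 1.73 in MoDC, 3.34 in EC and 10.5 in hepatocyte-like cells. The part of hepatocyte RNA in the Nr1h3 values of KC was not tested.

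**Figure D2:**
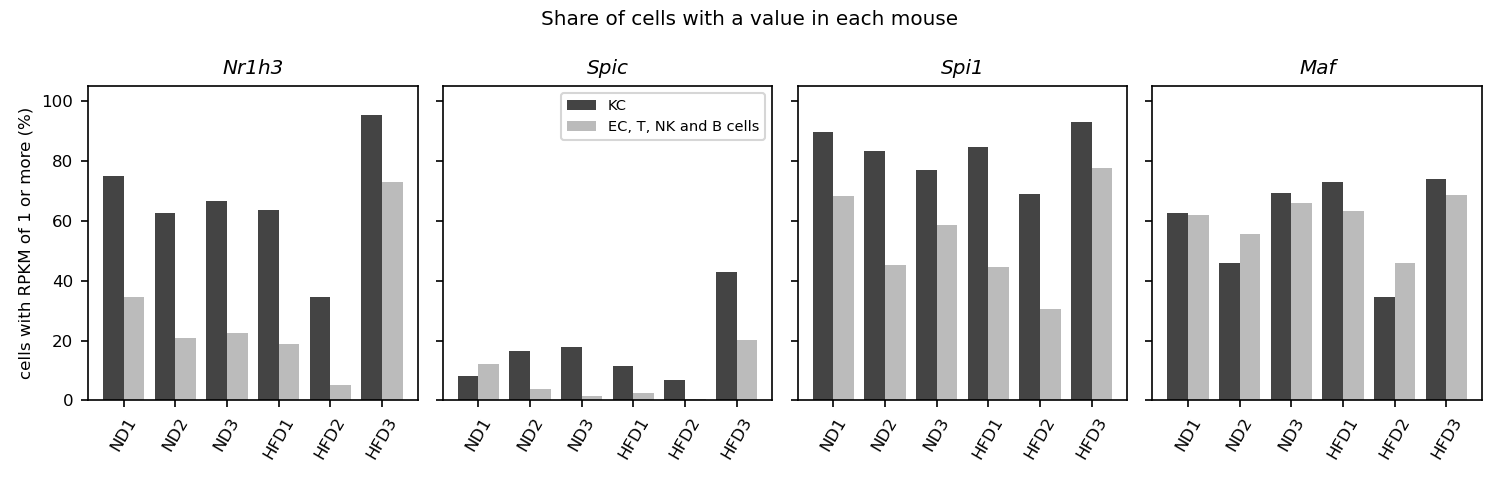
Share of cells with an RPKM of 1 or more of Nr1h3, Spic, Spi1 and Maf in each mouse, in KC (dark bars) and in EC, T-, NK- and B-like cells together (light bars). Nr1h3 outside KC runs from 5.20% of cells in HFD2 to 73% in HFD3, and the share in KC of the same mouse is higher in each of the 6 mice.

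Spic, which encodes the ETS factor that haem induces in macrophages that recycle red cells, was sparse. It reached 0.80, 1.52 and 1.18 in the KC of ND1, ND2 and ND3 and 0.82, 0.60 and 2.31 in those of HFD1, HFD2 and HFD3, a mean of 1.20 ± 0.63 (SD, n = 6). The other classes were at 0.30 or less. Only 41 KC (17.5%) had a value of 1 or more, and the highest single cell reached 8766 RPKM. It was found in 0 of 21 pDC-like, 0 of 14 neutrophil-like and 0 of 32 erythrocyte-like cells, which allows shares of cells with a value of up to 14.3%, 21.4% and 9.38%. These limits cover counting error only, take cells pooled over mice as independent and do not bound expression. In ND1 the share in KC (8.33%) was below that in EC, T-, NK- and B-like cells (12.1%). Of the 41 KC with Spic, 35 (85.4%) also had Nr1h3, against 64.8% of the KC without it, and the former had more genes per cell (median 3035 against 2232). HFD3 gave 18 of the 41, and in that mouse Nr1h3 was found in 94.4% of KC with Spic and 95.8% of those without. Without HFD3 the shares were 78.3% and 60.4%.

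Id3, an inhibitor of E proteins, was at 8.57 ± 0.51 in EC and 5.85 ± 0.64 in KC (n = 6). The lowest EC mouse (7.64, HFD3) was above the highest KC mouse (6.73, ND3), so these classes did not overlap. MoDC followed at 4.48 ± 1.02, hepatocyte-like cells at 4.10 ± 0.86 (n = 5) and B-like cells at 3.88 ± 0.60, and KC and MoDC overlapped through the 5.19 of MoDC in ND1 and the 5.18 of KC in HFD2. Maf had the same leading classes, with 5.36 ± 0.93 in EC, 2.80 ± 0.64 in KC, 1.44 ± 0.48 in MoDC and 1.36 ± 0.37 in T-like cells. Within EC both genes varied with the cluster: Id3 was at 7.58 in the cells led by Sparc, 7.89 in those led by Gpihbp1, 9.83 in those led by Cldn5 and 10.6 in those led by Ramp2, and Maf at 4.57, 4.76, 5.74 and 6.75 in the same order. The median number of genes per cell was 2613, 1731, 2697 and 3587 in these clusters, and in each cluster the mice gave unequal numbers of cells, the mouse with the most giving 77 of the 107 cells led by Gpihbp1 and, in the cluster led by Sparc, 82. The part of depth and of the mouse in these levels was not tested. Over the 50 means of mouse and class with at least 3 cells, Id3 and Maf had a Pearson r of 0.85 and Nr1h3 and Spic one of 0.71, values that describe points sharing mice and classes.

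Zeb2, a repressor active in monocytes and pDCs, did not set the myeloid classes apart from each other. Its level was 3.22 ± 1.03 in MoDC, 2.77 ± 0.47 in KC, 2.42 ± 1.11 in pDC (n = 4) and 2.12 ± 2.27 in neutrophil-like cells, and each of these neighbours overlapped the next. All 6 KC levels (2.22 to 3.35) were above those of T- and B-like cells (at most 0.81). EC (1.61 ± 0.44) and NK-like cells (1.36 ± 0.68) lay in between.

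Irf8, which pDCs and type 1 conventional dendritic cells need, was the clearest mark of a class. All 21 pDC-like cells had it at 10 RPKM or more. The level was 10.8 in ND1 and 11.2, 11.7 and 10.6 in HFD1, HFD2 and HFD3, the 4 mice with at least 2 such cells, a mean of 11.06 ± 0.46. MoDC came next at 5.74 ± 1.09, from 4.39 in HFD3 to 7.37 in ND1, which left a gap to every pDC mouse. NK-like cells were at 5.25 ± 2.51 and the most uneven class, with 6.51, 2.09 and 3.79 in the ND mice and 3.38, 7.23 and 8.48 in the HFD mice, of which HFD3 rests on 3 cells. B-like cells were at 4.67 ± 0.97 and KC at 3.79 ± 0.74.

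Batf3, the partner of IRF8 and IRF4 in dendritic cells, was highest in MoDC at 2.71 ± 2.03, with ND1 far above the other mice. MoDC were at 6.36, 0.92 and 3.2 in ND1, ND2 and ND3 and at 2.38, 0.76 and 2.63 in HFD1, HFD2 and HFD3. KC were at 1.51 ± 0.53 and had Batf3 in 21.8% of cells, and apart from the 14 neutrophil-like cells no other class exceeded 0.30. Irf4, which acts in type 2 dendritic cells and in B cells, was low everywhere: 1.58 ± 0.52 in B-like cells, 1.3 ± 0.28 in MoDC, 0.64 ± 0.82 in pDC and 0.27 ± 0.07 in KC. The MoDC mice (1.05 to 1.78) did not overlap the KC mice (0.17 to 0.36).

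Spi1 was the most abundant of the 9 in MoDC and in KC. It was at 9.61, 9.85 and 9.58 in the MoDC of ND1, ND2 and ND3 and at 9.48, 8.61 and 9.68 in those of HFD1, HFD2 and HFD3, a mean of 9.47 ± 0.44. Its KC values were 7.33, 6.85 and 7.03 in the ND mice and 7.34, 6.18 and 7.54 in the HFD mice, a mean of 7.05 ± 0.49, all below the lowest MoDC mouse. Neutrophil-like cells, with 2 or 3 cells in each mouse, ranged from 2.85 to 11.9. pDC (4.39 ± 2.01) and B-like cells (3.72 ± 1.13), both of which keep PU.1 at lower levels, came next. Spi1 had a value in 51 of 53 MoDC (96.2%), 83.8% of KC and, at 1 RPKM or more, 30.4% to 77.5% of EC, T-, NK- and B-like cells by mouse.

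KC differed from MoDC in 7 of the 9 genes, with the Kupffer factors higher and the interferon regulatory factors and PU.1 lower. The test was limma on the means of each mouse, with the mouse as a block and Benjamini-Hochberg adjustment over all 5540 genes tested. Of these genes 41.3% passed the adjusted 0.05 threshold, 5.32% as higher and 36% as lower in KC, so that 4 members higher in KC stand against a small share of genes and 3 lower against a large one. The median gene was lower in KC by 0.79, and KC had fewer genes per cell (median 2300 against 2992 in MoDC). When every mean was centred on the median of the genes tested, 53.4% of 1161 called genes were higher in KC, against 12.9% of 2287 without centring. Nr1h3 was higher in KC by 3.71 ± 0.37 (SE; adjusted p = 3.4e-07), in 6 of 6 mice. Id3 was higher by 1.37 ± 0.38 (adjusted p = 0.0083) and Maf by 1.36 ± 0.36 (adjusted p = 0.0061), both in 6 of 6 mice, but the call of Id3 was lost with a pseudocount of 0.1 (adjusted p = 0.0518) and with RPKM averaged before the logarithm (adjusted p = 0.219). The difference of Spic was 0.94 ± 0.37 (adjusted p = 0.0474), higher in 5 of 6 mice. The gene was called in 7 of 17 refits under other settings. Its call was lost without ND2, ND3, HFD1 or HFD2 (adjusted p up to 0.110), and without HFD3 the gene fell below the filter on low values.

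Spi1 was lower in KC by 2.42 ± 0.35 (difference -2.42, adjusted p = 3.3e-05), in 6 of 6 mice. When RPKM were averaged before the logarithm that difference shrank to -0.52 (adjusted p = 0.475). Irf8 differed by -1.95 ± 0.45 (adjusted p = 0.0027), lower in KC in 5 of 6 mice, and its call was kept in 17 of 19 refits. It was lost with centring (-1.14, adjusted p = 0.0553) and with no filter on low values (adjusted p = 0.0799). Irf4 differed by -1.03 ± 0.35 (adjusted p = 0.0262), lower in 6 of 6 mice, but by -0.23 with centring (adjusted p = 0.764). Its call was kept in 13 of 19 refits, and was also lost without ND1, ND3 or HFD3 (adjusted p 0.0692, 0.0529 and 0.0624), with classes from markers alone (adjusted p = 0.0768) and in cells with 2000 to 4000 genes (adjusted p = 0.229). Batf3 (-1.20 ± 0.48, adjusted p = 0.0526) and Zeb2 (-0.45 ± 0.38, adjusted p = 0.315) did not pass. The difference of Zeb2 was above 0 with centring.

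**Figure D3:**
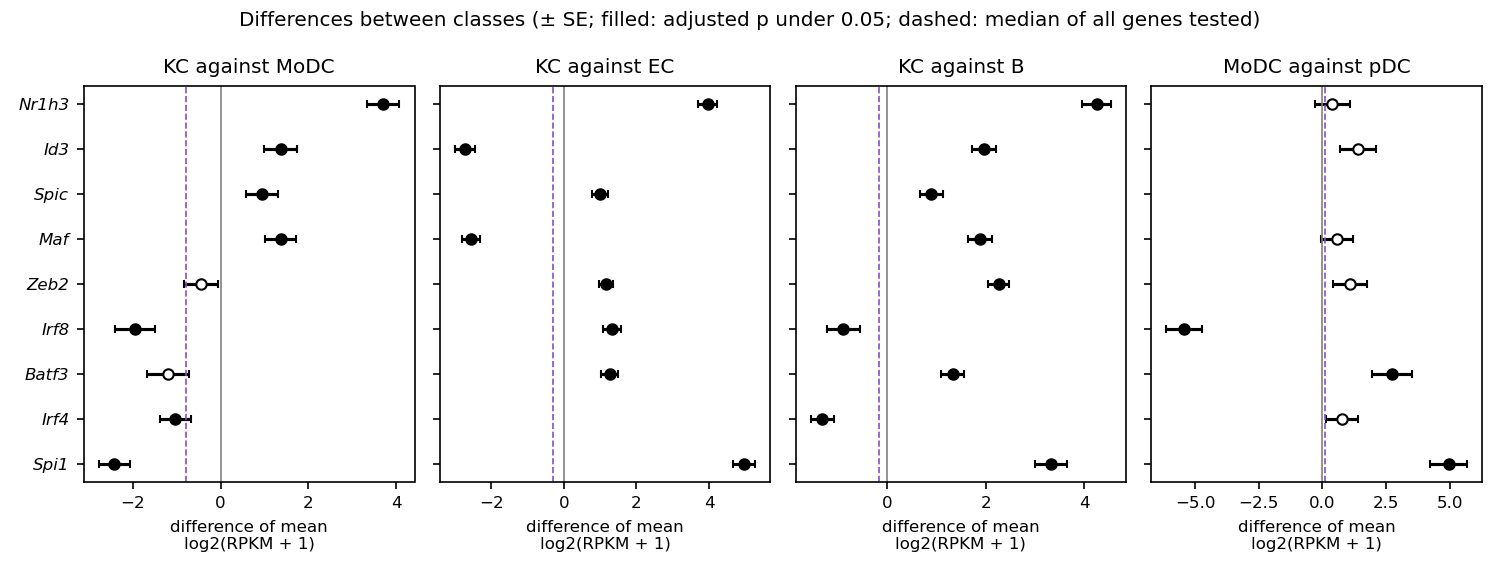
Difference of mean log2(RPKM + 1) for each gene in 4 class comparisons, with its standard error. Filled points passed an adjusted p of 0.05 in limma, open points did not, genes without a point were below the filter on low values, and the dashed line is the median of all genes tested. Nr1h3 lies right of 0 in all 3 comparisons of KC, Id3 and Maf lie left of 0 against EC, and Irf8 is the lowest point of MoDC against pDC.

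The same KC served against EC and B-like cells, so these comparisons are not independent of the first. Against EC all 8 members tested passed, with Irf4 below the filter, where 55.3% of 4722 genes did, 17.7% as higher and 37.6% as lower in KC. Nr1h3 (3.96 ± 0.25), Spi1 (4.97 ± 0.30), Irf8 (1.33 ± 0.25), Batf3 (1.26 ± 0.22), Zeb2 (1.17 ± 0.20) and Spic (1.0 ± 0.22) were higher in KC, while Id3 (-2.72 ± 0.28, adjusted p = 1.5e-06) and Maf (-2.55 ± 0.24, adjusted p = 5.9e-07) were lower. Each of these calls was kept in every refit in which the gene was tested, 18 for Spic and 19 for the others. Spic (0.21 in EC) and Batf3 (0.25) met the filter only in KC, so the filter fixed their direction. Against B-like cells all 9 passed, where 53.5% of 4367 genes did, 23.8% as higher and 29.6% as lower in KC. Nr1h3 (4.25 ± 0.29), Spi1 (3.33 ± 0.33), Zeb2 (2.27 ± 0.22), Id3 (1.97 ± 0.24), Maf (1.89 ± 0.24), Batf3 (1.33 ± 0.24) and Spic (0.90 ± 0.23) were higher in KC, and Irf4 (-1.30 ± 0.24, adjusted p = 3.3e-04) and Irf8 (-0.88 ± 0.33, adjusted p = 0.0377) were lower. The call of Irf8 was kept in 11 of 19 refits and lost, among others, without ND1, ND3 or HFD1 (adjusted p 0.163, 0.131 and 0.0852) and with no filter on low values (adjusted p = 0.216). Nr1h3, Zeb2, Maf, Batf3 and Spic met the filter only in KC and Irf4 only in B-like cells, so the filter fixed their direction. The study itself names Nr1h3 as a Kupffer gene and Id3 and Maf as genes of an endothelial population, from these same cells, so their directions are not independent evidence.

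MoDC and pDC could be set side by side in 4 mice. Of the 8 members tested 3 passed, where 6.71% of 6555 genes did, 3.11% as higher and 3.6% as lower in MoDC. Irf8 was lower in MoDC, at 5.63 ± 1.34 against 11.06 ± 0.46 (difference -5.43 ± 0.70, adjusted p = 5.6e-05), in 4 of 4 mice. Spi1 was higher in MoDC, at 9.34 ± 0.50 against 4.39 ± 2.01 (difference 4.96 ± 0.72, adjusted p = 2.1e-04), again in 4 of 4. Both calls were kept in 17 of 19 refits. They were lost with RPKM averaged before the logarithm (Irf8 -2.43, adjusted p = 0.162, and Spi1 4.02, adjusted p = 0.0750) and with no filter on low values (adjusted p 0.0805 and 0.110). Batf3 was higher in MoDC by 2.73 ± 0.77 (adjusted p = 0.0359), which fell to 1.70 without ND1 (adjusted p = 0.281), and the adjusted p was 0.0543 without HFD3 and 0.0880 without the HFD3 cells that held neutrophil granule genes. This call was kept in 12 of 19 refits (adjusted p up to 0.344, with no filter). Batf3 met the filter only in MoDC (3.03, against 0.30 in pDC), so the filter fixed its direction. Id3 (1.40 ± 0.70, adjusted p = 0.287) and Zeb2 (1.07 ± 0.66, adjusted p = 0.393) did not pass, nor did Nr1h3, Maf and Irf4 (differences of 0.39 to 0.76, adjusted p of at least 0.541), and Spic was below the filter. Of the 5 other pDC factors listed, Spib, Runx2, Tcf4 and Bcl11a were lower in MoDC, with Spib at -7.37 ± 0.76 and Runx2 at -6.65 ± 0.64. The study names Irf8, Tcf4, Bcl11a and Runx2 as pDC genes from these cells, so their direction is not independent evidence.

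MoDC and B-like cells differed in 4 of 8 members, where 37% of 5587 genes did, 32% as higher and 4.99% as lower in MoDC. Spi1 (5.75 ± 0.41, adjusted p = 2.3e-09), Zeb2 (2.72 ± 0.40, adjusted p = 2.9e-05) and Batf3 (2.53 ± 0.54, adjusted p = 0.0012) were higher in MoDC. The call of Batf3 was lost in 1 of 19 refits, with no filter on low values (adjusted p = 0.113). Zeb2 (0.51 in B-like cells) and Batf3 (0.18) met the filter only in MoDC, so the filter fixed their direction. Irf8 was higher by 1.07 ± 0.41 (adjusted p = 0.0455), a call kept in 6 of 19 refits that was lost, among others, without ND1, ND2, ND3, HFD1 or HFD2 (adjusted p 0.0668 to 0.166) and with centring (0.37, adjusted p = 0.599). Irf4 did not pass (-0.27 ± 0.35, adjusted p = 0.546), nor did Nr1h3, Id3 and Maf (differences of 0.52 to 0.60, adjusted p of at least 0.205), and Spic was below the filter. Between T- and NK-like cells 1 of the 5 members tested passed, where 3.29% of 4893 genes did, 2.27% as higher and 1.02% as lower in T-like cells. Irf8 was lower in T-like cells, at 1.94 ± 0.44 against 5.25 ± 2.51 (difference -3.30 ± 0.68, adjusted p = 0.0179), in 6 of 6 mice. The call was kept in 12 of 18 refits and lost, among others, without ND1 or HFD2 (adjusted p 0.0784 and 0.0659) and with no filter (adjusted p = 0.211). Zeb2 differed by -0.96 ± 0.36 (adjusted p = 0.187), and Id3, Maf and Spi1 by -0.26 to 0.41 (adjusted p of at least 0.581). Nr1h3, Spic, Batf3 and Irf4 were below the filter.

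The 53 MoDC were not of 1 kind, and the dendritic factors varied among them. They fell into clusters led by Nr4a1 and Ace (20 cells), by Lyz2 and S100a4 (18 cells) and by Plbd1 and H2-DMb1 (15 cells). Irf8 was at 3.69, 7.13 and 6.49 in these clusters over cells, and Irf4 at 0.33, 1.3 and 2.45. Batf3 was at 1.01, 3.12 and 3.51, whereas Spi1 stayed between 9.08 and 9.81. Zeb2 was lowest in the cluster led by Plbd1, at 1.79, against 3.0 and 4.29. The cluster led by Nr4a1 had fewer genes per cell (median 2326, against 3249 and 3127), and the members themselves took no part in forming the clusters, but cells are not replicates and no test was made.

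**Figure D4:**
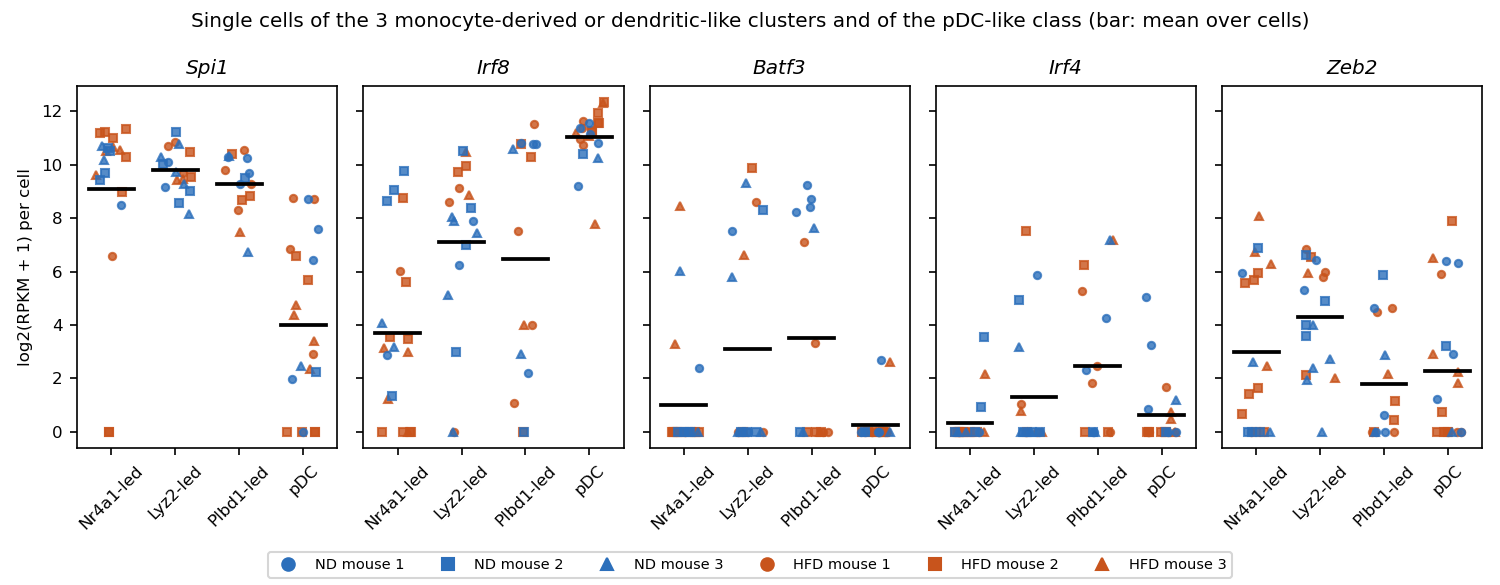
log2(RPKM + 1) of Spi1, Irf8, Batf3, Irf4 and Zeb2 in each cell of the 3 MoDC clusters and of the pDC class, coloured by diet and shaped by mouse, with a bar for the mean over cells. Spi1 is high in nearly every MoDC cell, Irf8 is high in every pDC cell, and most MoDC cells sit at 0 for Batf3 and Irf4.

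A second view parted the same cells by whether 8 dendritic or 8 monocyte genes, none of them a member, had the higher mean. The 16 dendritic-leaning cells came from 5 mice and the 37 monocyte-leaning cells from 6, and 3 cells lay within 0.5 of the boundary. Dendritic-leaning were 14 of the 15 cells led by Plbd1, 2 of the 20 led by Nr4a1 and 0 of the 18 led by Lyz2. The cells led by Lyz2 thus had Irf8 at 7.13 and Batf3 at 3.12 without leaning dendritic. Zeb2 had a value in 6 of 16 dendritic-leaning cells and in 30 of 37 monocyte-leaning cells, with means over cells of 1.55 and 3.76. Nr1h3 was at 0.22 and 1.64, Irf4 at 1.85 and 1.01, Batf3 at 3.29 and 2.06, Irf8 at 6.31 and 5.36 and Spi1 at 8.89 and 9.61. These means pool cells over mice, and single mice carried some of the differences. Without ND1, Batf3 was at 1.5 and 1.95, the other way round, and Irf8 at 5.53 and 5.34. Without HFD2, Spi1 was at 9.52 and 9.69, and without HFD3, Nr1h3 was at 0.22 and 1.1. In ND1, the mouse with the high Batf3, all 4 dendritic-leaning cells had Batf3, at a mean of 8.66. In HFD2 none of 4 did. HFD3 had no dendritic-leaning cell.

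Within KC, the cells with Timd4, a receptor for dying cells found on long-lived Kupffer cells, were set against the 70 cells without. No member passed, and 2 of 3652 genes did (0.0548%), with 9.91% of genes at an unadjusted p under 0.05 in limma. Nr1h3 was at 5.52 ± 1.12 with Timd4 and 3.98 ± 1.14 without (difference 1.54 ± 0.48, adjusted p = 0.320), higher in 5 of 6 mice, and Id3 at 6.18 ± 0.49 and 4.84 ± 1.44 (difference 1.35 ± 0.48, adjusted p = 0.390). Spic, Maf, Zeb2, Irf8, Batf3 and Spi1 differed by -0.24 to 0.67 (adjusted p of at least 0.695), and Irf4 was below the filter. Cells with Timd4 had more genes (median 2469 against 2031.5) and more reads (estimated median 126208 against 65305), and the part of depth in these differences was not tested. KC also fell into 2 clusters of unequal depth: Nr1h3 was at 3.92 and Spic at 0.72 in the 123 cells led by C1qa (median 1951 genes), and at 6.53 and 1.70 in the 111 led by Wfdc17 (median 2910 genes). The clusters also differed in their mice: that led by Wfdc17 held 37 cells of HFD3 and none of HFD2, that led by C1qa 5 and 29. Nr1h3 was higher in the cluster led by Wfdc17 in each of the 5 mice with cells in both, and Spic in 4 of the 5, with HFD1 at 0.53 against 0.98. The part of depth in these differences was not tested.

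The partners and targets of the 9 factors were followed in 8 lists. Against MoDC, where 5.32% of all genes were higher and 36% lower in KC, all 3 SPI-C targets were higher in KC, where the median of all genes was -0.79: the iron exporter Slc40a1 by 6.90 ± 0.37, the haem oxygenase Hmox1 by 3.52 ± 0.46, and Vcam1. Of 9 LXR targets 4 were higher, namely Apoe (5.05 ± 0.39), the phospholipid transfer protein Pltp (4.58 ± 0.46), Abca1 and Smpdl3a, and Lpcat3 was lower, with a list median of 0.77. Of the 6 other Kupffer factors tested, Rxra, the partner of LXR, was higher (2.86 ± 0.39), and Nr1h2 and Rbpj were lower (Rbpj -1.25 ± 0.45). PU.1 targets went both ways: the macrophage growth factor receptor Csf1r was higher in KC by 2.46 ± 0.44 and Fcgr3 was higher too, while Csf2ra (-3.79 ± 0.40), Csf3r and Itgam were lower. Of 9 monocyte and macrophage factors tested 5 were lower, with Nr4a1 at -4.36 ± 0.39 and Cebpb at -2.33 ± 0.47 beside Klf2, Klf4 and Runx1. Of 6 other interferon regulatory factors 4 were lower, with Irf5 at -3.63 ± 0.46 beside Irf1, Irf2 and Irf9, and Irf7 was higher at 3.11 ± 0.38. Of 6 conventional dendritic factors 4 were lower (Bcl6 -2.64 ± 0.39, Relb -1.41 ± 0.49, Id2 and Nfil3) and none higher, and of 5 plasmacytoid factors 2 (Cbfa2t3 -3.01 ± 0.40, Runx2 -1.12 ± 0.36). Of the calls against MoDC given here, those of Lpcat3 and Id2 were kept in 6 of 19 refits each, that of Smpdl3a in 9 and those of Klf2 and Runx1 in 11 each. Against pDC, where 3.11% of all genes were higher and 3.6% lower in MoDC, 4 of 6 PU.1 targets tested were higher in MoDC, with Csf2ra at 5.30 ± 0.68 and Csf1r at 4.44 ± 0.64 beside Itgam and Fcgr3. Of 8 LXR targets Smpdl3a and Apoe were higher in MoDC, and Pltp (-4.19 ± 0.69) and Scd2 were lower, with the calls of Fcgr3 and Apoe against pDC kept in 10 and 11 of 19 refits.

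The genes whose pattern over the 50 means of mouse and class was most like a member, out of 11855 searched, differed from factor to factor. For Nr1h3 they were Igf1 (r = 0.88), C3ar1 (0.84) and Apoc1 (0.83), for Spic Pdlim4 (0.86), Lpl (0.83) and Epb4.1l3 (0.82). For Maf they were Dab2 (0.94), Mrc1 (0.92) and Myo7a (0.92), and Mrc1 and Myo7a also stood among the 3 of Id3, with Mertk (0.86). For Spi1 they included Lrrc25 (0.90) and Lst1 (0.89), for Irf8 Tcirg1 (0.84), Sema4b (0.83) and Zmiz2 (0.82), for Batf3 Tbc1d9 (0.93), Pak1 (0.89) and Rnf150 (0.87), for Zeb2 Gab2 (0.81), Hk2 (0.80) and Plxnb2 (0.78), and for Irf4 Gm15987 (0.84), Filip1l (0.81) and Ms4a4c (0.81). The points share mice and classes, so these values only rank the genes.

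The diets were compared within 5 classes to ask whether the factors moved with high-fat feeding, and no member passed in any of them. In KC 1 of 3247 genes passed (0.0308%), and in MoDC, EC, B- and T-like cells none of 5251, 4236, 3629 and 4401 did (0%). Without HFD3, 48 genes passed in EC, and no member was among them. At an unadjusted p under 0.05 in limma stood 2.46%, 2.84%, 1.98%, 4.0% and 3.52% of the genes in these 5 classes, and the adjusted p of every member was at least 0.997. With 3 mice against 3 an exact permutation test cannot give a p below 0.1. Nr1h3 in KC was at 5.26 ± 0.18 in ND and 4.90 ± 2.21 in HFD mice, the latter spread between HFD2 and HFD3. Spi1 in KC was at 7.07 ± 0.24 and 7.02 ± 0.73, Id3 at 5.98 ± 0.70 and 5.73 ± 0.70, and Irf8 at 3.60 ± 0.72 and 3.99 ± 0.86. Spic, Maf, Zeb2 and Batf3 in KC differed by -0.24 to 0.08 (HFD minus ND), and Irf4 was below the filter. In MoDC, Irf8 was at 7.37, 6.41 and 5.48 in the ND mice and 5.99, 4.78 and 4.39 in the HFD mice (difference -1.37 ± 0.87, adjusted p = 0.999, exact two-sided permutation p = 0.2). The direction of Irf8 turned with classes from markers alone (0.36) and in cells with 2000 to 4000 genes (0.64). Batf3 in MoDC was at 3.5 ± 2.73 in ND and 1.92 ± 1.01 in HFD mice (difference -1.57 ± 1.02, adjusted p = 0.999), a difference of -0.14 without ND1, and the other members tested differed by -0.42 (Spi1) to 0.68 (Zeb2), with Nr1h3, Id3, Maf and Irf4 between and Spic below the filter. In B-like cells Spi1 was at 4.65, 3.03 and 5.58 in the ND mice and 3.22, 2.73 and 3.09 in the HFD mice (difference -1.41 ± 0.60, adjusted p = 0.997), Id3, Irf8 and Irf4 differed by -0.46 to 0.19, and the other members were below the filter. In EC the 3 HFD mice had Id3 at 8.61, 8.48 and 7.64, each below the 8.62, 9.01 and 9.06 of the ND mice (difference -0.65 ± 0.45, adjusted p = 1.0, exact two-sided permutation p = 0.1). Nr1h3, Maf, Zeb2, Irf8 and Spi1 in EC differed by -0.55 to 0.55, Id3, Maf, Irf8 and Spi1 in T-like cells by -0.41 to 0.06, and the other members were below the filter in these classes. Simulated data of this size had 100 genes shifted by 2 and 100 by 3 in KC, and 43% and 80% were called. That simulation held 130 calls, against 1 in the data, so its adjusted threshold was looser. These shares do not give the sensitivity for a single shifted member.

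**Figure D5:**
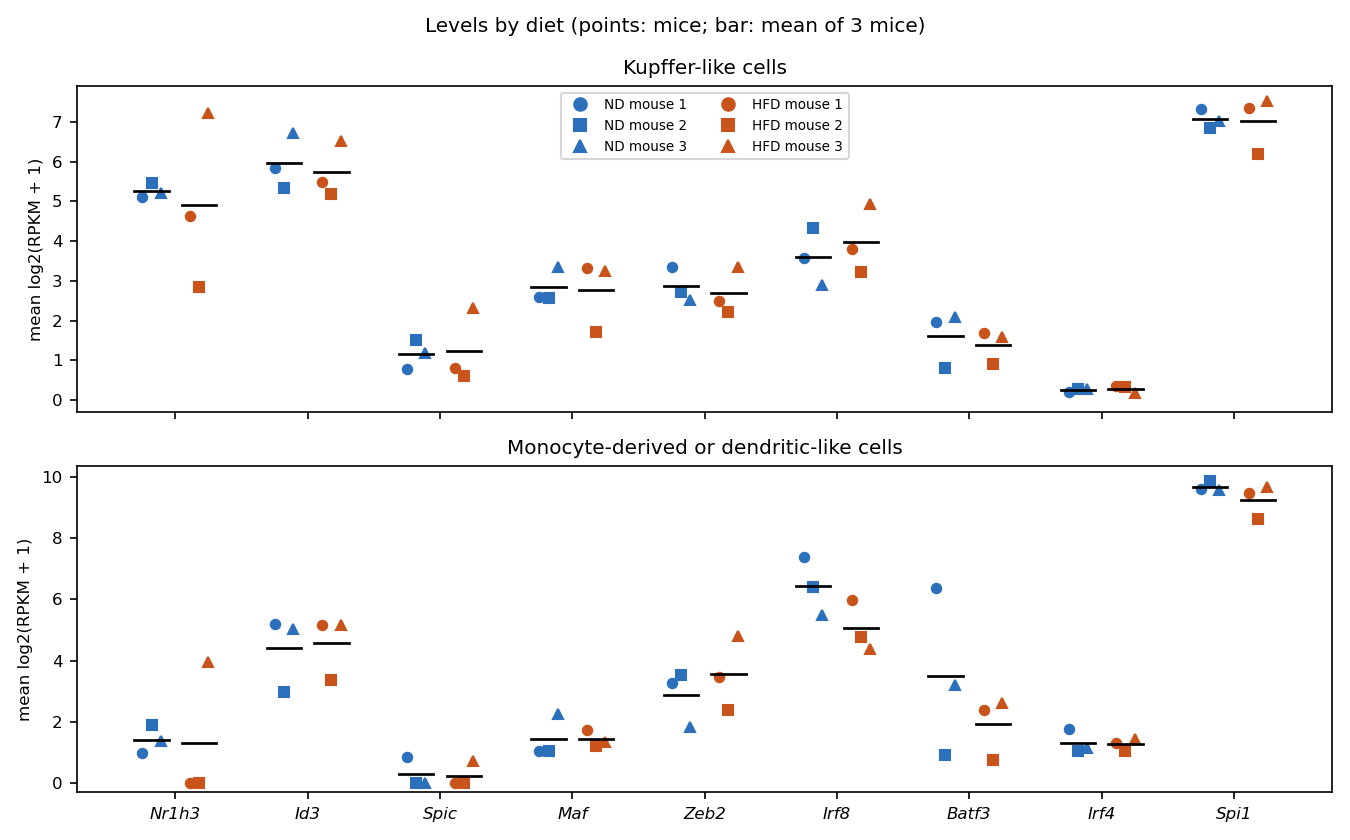
Level of the 9 genes as mean log2(RPKM + 1) in KC (upper) and MoDC (lower), with ND mice blue, HFD mice orange and a bar for the mean of 3 mice. The diets overlap for every gene in KC, and in MoDC the ranges of Irf8 overlap, with a mean 1.37 lower in HFD mice that turned to 0.36 and 0.64 higher under other cell selections.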

How the data were processed

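Full-length Smart-seq2 libraries of sorted live liver cells were demultiplexed with bcl2fastq and aligned with STAR to mm10, per the labels, and the authors counted unique reads over RefSeq genes. The deposited values are RPKM, normalised by the authors for gene length and each cell's reads. The authors removed low-quality cells and doublets before deposit, so no doublet caller was run. Total reads are not in the table. They were estimated from the smallest steps of the values, with medians of 88348 to 199893 reads per cell by mouse. The estimate was within 2% for 85% of 20 simulated cells, so only medians are used.

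Cells were classed by spectral clustering (17 clusters, 20 principal components of 1000 variable genes, scikit-learn 1.9.0) and fixed markers. A second k-means step (5 clusters of 88 cells) was chosen after the clusters were seen and before members were tested. Means of log2(RPKM + 1) per mouse and class were tested with limma 3.58.1 in R 4.3.3, among mice with at least 2 cells of both classes (3 for diet). Genes needed a mean of at least 1 in either class (for diet, over all mice). Where only 1 of the classes reached this, the direction of the difference was fixed by the filter. Class fits had the mouse as a block. Diet fits had none. The p-values were adjusted by Benjamini-Hochberg over all genes tested. The tests were tried on simulated data: between KC and MoDC, on 5540 genes, shifts of 1 and 2 were called for 12% and 73% of 100 genes each, and 5.56% of calls were false. In the diet test in KC 5.38% were. The simulation between KC and MoDC held 90 calls, against 2287 in the data, so its adjusted threshold was stricter. Its shares do not give the sensitivity of the fit to the data.

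Members, lists and tests were chosen with earlier results of these data known. The rule was to name every member in each comparison, up to 2 called genes of each list by absolute difference, and the 3 genes most like each member. List genes are given only for KC against MoDC and, in part, MoDC against pDC. Called genes of short lists given with no value were named after their values were seen. Some genes that fall under these rules are not reported here. Centring and the limit to cells with 2000 to 4000 genes were added after the data were seen. Positions are from GENCODE M21 (GRCm38) and promoters from RefSeq (GRCm38.p6), which matched 7 of 9 members. Maf and Spi1 had no entry.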

Additional observations from a re-analysis of the deposited data

Results flagged for a closer look

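In 50 sets of mice (a member in a class with a level of at least 1 and 4 or more mice), the highest or lowest mouse was tested for its distance from the rest by Dixon's ratio, and 6 stood apart. Chance alone gives about 1 in 20 sets. In EC, Nr1h3 in HFD3 was at 3.52, with the next mouse at 1.26. HFD3 also had the most Kupffer marker signal outside KC (5.08), and its part in this value was not tested. In MoDC, Spi1 in HFD2 was at 8.61, below 9.48 in the next mouse. In B-like cells, Irf4 in HFD2 was at 0.58, with the next at 1.49, and Id3 in ND2 at 2.73, with the next at 3.81. Id3 in neutrophil-like cells and Irf8 in erythrocyte-like cells were listed at 0 in HFD2, with 2 cells each, where the next mice were at 2.59 and 1.70. HFD2 had the fewest genes per cell of the 6 mice (median 1595.5), and gave 4 of the 6 values. Its cells are named in the labels by another scheme than those of the other 5 mice, and whether they were handled differently is not given in the sources used here. The part of depth and of handling in these values was not tested.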

How the results depend on the processing

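The 32 called differences of members were refitted 603 times under the alternatives. The direction was the same in 603 refits and the call was kept in 543. For members that met the filter in only 1 class, the direction was tied to the filter. Differences not called and not given singly changed sign in 18% of 705 refits, and 1 of these refits was a call. The listed partners named by rule, those with the largest called differences, kept their direction in all of 1349 refits and their call in 1265. The 22 other called differences of named partners kept their direction in all of 418 refits and their call in 310.

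The number of members called moved by over 1.5 times in 3 comparisons. Between MoDC and pDC it went from 3 to 1 with RPKM averaged before the logarithm and to 0 with no filter on low values (Irf8 -5.43, adjusted p = 0.0805). Between MoDC and B-like cells it went from 4 to 2 with no filter. Between T- and NK-like cells it went from 1 to 0 with RPKM averaged before the logarithm, with no filter, with cells of 2000 to 4000 genes and with no replicate block. Leaving out 1 mouse in turn gave 5 to 7 members between KC and MoDC, 7 to 8 between KC and EC, 8 to 9 between KC and B-like cells, 3 to 4 between MoDC and B-like cells, 2 to 3 between MoDC and pDC, 0 to 1 between T- and NK-like cells, and 0 in the diet and Timd4 comparisons. Zeb2 between KC and MoDC turned to 0.90 with RPKM averaged before the logarithm and to 0.35 with centring, and Irf8 by diet in MoDC turned to 0.36 with classes taken from markers without clustering and to 0.64 in cells of 2000 to 4000 genes. The cause was not tested. Without the mouse as a replicate block, 6 members were called between KC and MoDC, 8 between KC and EC, 8 between KC and B-like cells, 3 between MoDC and B-like cells, 2 between MoDC and pDC, 0 between T- and NK-like cells and 0 for Timd4. In the diet fits a replicate block by mouse number called 0 members in all 5 classes. Same-numbered mice of the 2 diets did not deviate together (correlations of -0.23 to 0.20), so the numbers were not taken as pairs. Centring took the calls between MoDC and B-like cells from 2068 to 1311 genes, and the share higher in MoDC from 86.5% to 52.1%. The number of genes called also moved by over 1.5 times: relative to the main count, it was 0.33 between KC and MoDC with RPKM averaged before the logarithm, 0.53 with no filter, 0.51 with centring and 0.43 in cells of 2000 to 4000 genes, 0.46, 0.51, 0.63 and 0.53 between MoDC and B-like cells in the same order, 0.052 between MoDC and pDC with no filter and 0.51 to 0.67 in 7 other settings, and 0.27 between T- and NK-like cells with no filter, 1.53 with RPKM averaged first and 0.38 to 0.62 in 5 others. It went for Timd4 from 2 to 30 with classes from 10 components and 32 from markers. In the other settings Timd4 and diet counts stayed at 4 or less, except 48 in EC without HFD3. With centring, the share of called genes higher in KC between KC and EC went from 32% to 53.2%. The share higher in T-like cells, between T- and NK-like cells, went from 68.9% to 55.3% with centring.

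Classes built from 10 components or from markers alone gave 94.3% and 92.2% of cells the same name. For each of the 9 members, the class with the highest share of cells was the class with the highest level at 1 and at 10 RPKM. The MoDC, pDC, NK and neutrophil-like classes hold few cells in each mouse, which limits the precision of their levels.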

Other observations

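Cells carrying neutrophil granule transcripts (3 or more of Ngp, Camp, Lcn2 and Ltf, each reaching an RPKM of 10) were found in 1 mouse only: 5 of 42 KC and 2 of 7 MoDC of HFD3, and 0 in the KC and MoDC of the other 5 mice. Without them the number of members called was 7 between KC and MoDC, 9 between KC and B-like cells, 4 between MoDC and B-like cells and 2 between MoDC and pDC.

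Most KC held several of the 9 factors at once, with a median of 5 found at 1 RPKM or more in KC, MoDC and pDC, 4 in EC and 3 in T-, NK- and B-like cells. In KC, Spi1 was found with Irf8 in 80.6% of the cells with Spi1, and Irf8 was found in 22 of the 38 KC without it (57.9%), which had fewer genes per cell (median 1871.5 against 2400.5). The part of depth in these shares was not tested.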
